A study of Mus musculus with 18 samples.

Results

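Genes that mark cells of the vessel wall and of the membranes around the spinal cord were followed in sorted spinal cord cells of mouse embryos. Of these 10 genes, 6 are markers of mural cells (Rgs5, Kcnj8, Abcc9, Vtn, Higd1b and Pdgfrb) and 4 are markers of meningeal fibroblasts (Postn, Lum, Aldh1a2 and Dcn). They were chosen by symbol in the authors' coexpression table, and all 10 were found among the 23834 named genes tested.

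All samples came from spinal cords of Aldh1l1-GFP transgenic embryos on the Swiss-Webster background, so the comparison cells carry the transgene too. In this line green fluorescent protein is driven by the Aldh1l1 promoter, which is active in radial glia and astrocytes. Cells sorted as GFP-positive (GFP cells) have 3 arrays for E13.5, 2 for E14.5 and 3 for a late age, whose replicates 1 and 2 are E17.5 and whose replicate 3 is E18.5. All live cells of the cord (whole) have 3 arrays per age, and their late replicates are of the same ages. Whole still holds the GFP cells. The titles call the second sort all live cells while the shared treatment text speaks of GFP-negative cells, and the titles were followed here. One further array, which its own title marks as mislabeled, entered no comparison. The labels call the arrays biological replicates and name no litter or animal. A p-value here therefore sets a difference only against the spread between such arrays, which may not be the spread between animals or litters.

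Mural cells, the pericytes of capillaries and the smooth muscle cells of larger vessels, wrap the endothelial tube. Endothelial cells secrete PDGF-B, which binds the receptor PDGFRβ on mural cells and recruits them as vessels grow into the neural tube. The meninges surround the cord, and their fibroblasts secrete collagens, the small proteoglycans that bind collagen fibrils, and retinoic acid. Neither cell type belongs to the glial lineage that the transgene labels.

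Values below are log2 expression values for 1 probe set per gene, after the authors' RMA normalisation. A difference is GFP minus whole, or the later minus the earlier age, on the log2 scale, with limma's standard error after the ± sign and Benjamini-Hochberg adjustment over all 23834 genes. A call is an adjusted p under 0.05. Levels of different genes were not compared, because each comes from its own probe set. Summed levels of a gene list, given below, weigh toward its probe sets with the highest values. Arrays of 1 group correlated at 0.985 to 0.994. The gene behind the sort, Aldh1l1, had a GFP excess of 2.19 ± 0.12 (E13.5, limma adjusted p = 3.52e-09), 1.80 ± 0.14 (E14.5, 9.05e-08) and 0.96 ± 0.12 (late, 5.25e-05). The glial glutamate transporter Slc1a3 followed with 1.87 ± 0.07, 1.84 ± 0.08 and 0.66 ± 0.07.

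At E13.5, 8 of the 10 genes differed between GFP cells and whole, against 19.1% of all genes. Of these, 6 were lower in GFP cells (background 8.01%) and 2 were higher (background 11.1%). At E14.5 it was again 8 of 10, of which 6 were lower (background 8.23%) and 2 higher (10.3%). At the late age 6 of 10 were lower (background 4.68%; 9.29% of all genes were called in either direction) and none was higher (background 4.61%). All 5 mural genes other than Pdgfrb were among those 6 late genes. Only Postn of the meningeal genes was among them. Pdgfrb and Dcn made up the higher genes at both earlier ages. The arrays of the 2 sorts did not overlap for 9, 10 and 6 of the 10 genes in order of age, against 40%, 45.9% and 21.6% of all genes. The median difference of the 6 mural genes was -0.61, -0.69 and -1.88 in order of age. That of the 4 meningeal genes was -1.52, -1.08 and -0.08. The median over all genes lay at -0.04, -0.03 and 0.04. In these bulk samples, fewer cells of a type and less RNA per cell cannot be told apart.

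**Figure D1:**
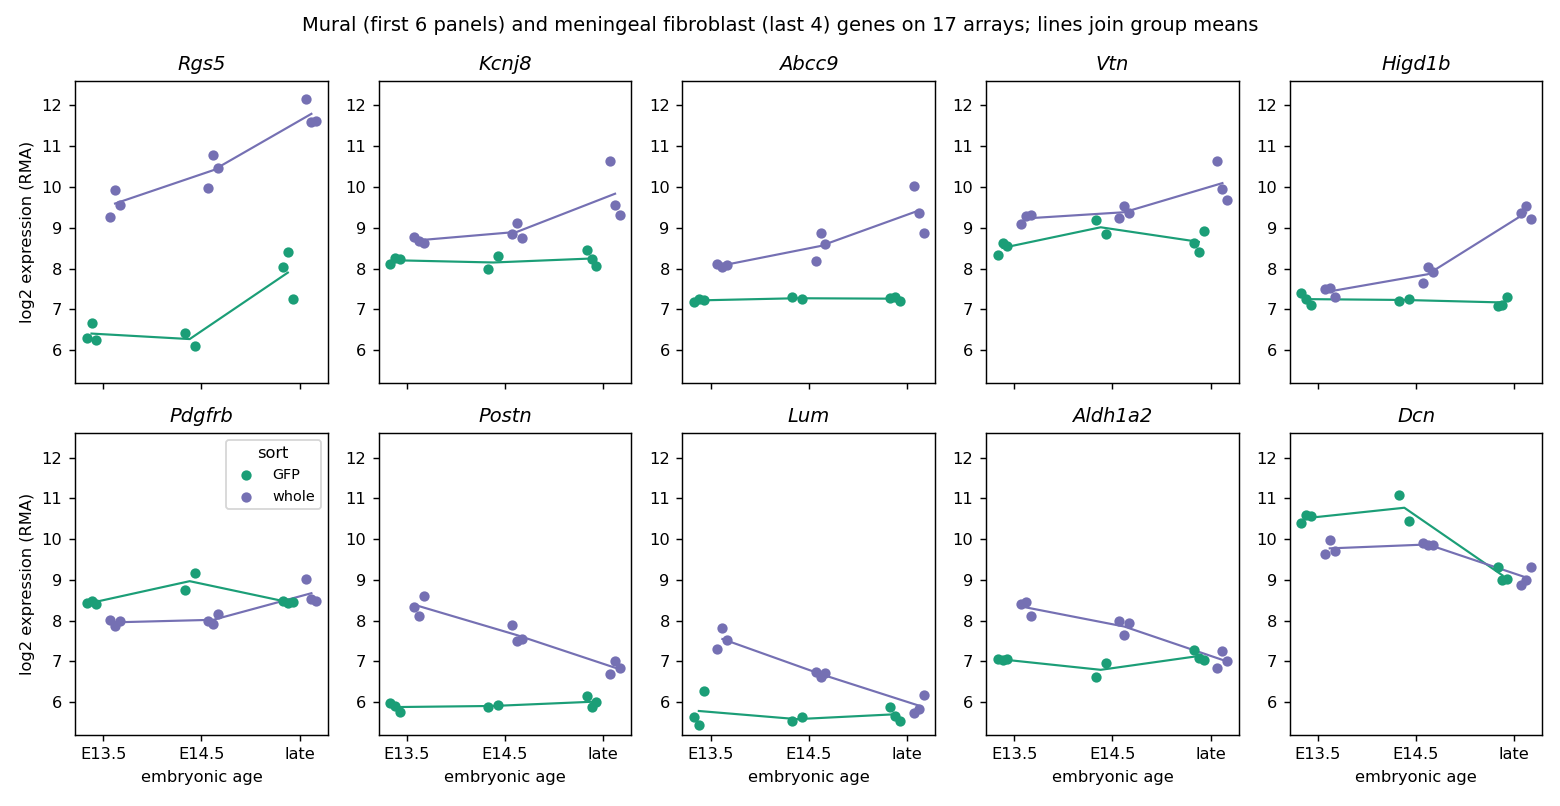
Log2 expression (vertical axis, same range in every panel) of the 10 genes on each of 17 arrays by embryonic age (horizontal axis). Points are single arrays, green for GFP cells and purple for whole, and lines join group means. The mural genes Rgs5, Kcnj8, Abcc9, Vtn and Higd1b climb in whole, while Postn, Lum and Aldh1a2 descend in whole toward the level of the GFP cells.

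The mural genes Rgs5, Kcnj8, Abcc9 and Vtn were placed by the authors in a single coexpression module. For this reason the 250 bases before their RefSeq start sites (GRCm38.p6) are printed, each 5′ to 3′ on the strand of the gene. The last base of each lies next to the start site. Of the 10 genes, 6 were matched in the table of RefSeq promoters used here. Capitals mark exact matches, on either strand, to TGGGAA (the core bound by the Notch effector RBPJ), TAAACA (a forkhead core), GGAAGT (an ETS core) or TATAAA (the TATA box).
Rgs5 (chr1:169655251-169655500, plus strand): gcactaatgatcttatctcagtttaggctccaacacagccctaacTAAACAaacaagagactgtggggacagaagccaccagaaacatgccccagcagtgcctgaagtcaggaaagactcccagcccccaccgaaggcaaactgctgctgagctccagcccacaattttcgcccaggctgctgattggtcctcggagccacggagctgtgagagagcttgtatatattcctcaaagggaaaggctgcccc
Kcnj8 (chr6:142571615-142571864, minus strand): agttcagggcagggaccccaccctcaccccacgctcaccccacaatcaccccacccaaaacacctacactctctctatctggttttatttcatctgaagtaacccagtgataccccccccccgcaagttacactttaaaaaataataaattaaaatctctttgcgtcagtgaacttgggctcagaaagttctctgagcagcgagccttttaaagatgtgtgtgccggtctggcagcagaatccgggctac
Abcc9 (chr6:142702275-142702524, minus strand): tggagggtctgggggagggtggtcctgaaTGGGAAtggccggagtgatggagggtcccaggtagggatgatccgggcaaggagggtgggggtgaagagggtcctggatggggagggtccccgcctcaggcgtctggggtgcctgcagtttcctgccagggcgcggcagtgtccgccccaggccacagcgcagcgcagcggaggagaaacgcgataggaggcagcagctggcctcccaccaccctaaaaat
Vtn (chr11:78498870-78499119, plus strand): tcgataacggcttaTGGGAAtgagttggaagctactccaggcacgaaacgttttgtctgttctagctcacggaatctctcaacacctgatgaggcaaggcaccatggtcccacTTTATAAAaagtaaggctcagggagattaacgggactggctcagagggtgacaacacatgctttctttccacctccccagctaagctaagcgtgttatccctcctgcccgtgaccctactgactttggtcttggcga
In the same window of 27025 mouse promoters, TGGGAA occurred in 21.5%, TAAACA in 12%, GGAAGT in 20% and TATAAA in 13%. Abcc9 and Vtn each held 1 match to TGGGAA, 221 and 236 bases before the start. Rgs5 held TAAACA 205 bases before the start. The longer run of capitals in Vtn is a match to TATAAA overlapped by a match on the opposite strand, about 135 bases before the start. The Kcnj8 window held none of these letters. These matches describe the windows and show no bound site.

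Rgs5 was the gene of the 10 with the widest gap between the sorts. It encodes a regulator of G protein signalling that shortens signals through G protein α subunits, and it is a standard pericyte marker. Its level in whole was 9.28, 9.94 and 9.57 at E13.5, 9.98, 10.80 and 10.47 at E14.5, and 12.15, 11.61 and 11.63 at the late age. In GFP cells it was 6.30, 6.67 and 6.25 at E13.5, 6.43 and 6.11 at E14.5, and 8.03, 8.41 and 7.26 at the late age. Every GFP array lay below every whole array, including those of other ages. Its GFP values at E13.5 and E14.5 lay not far above the 10th percentile of all genes on these arrays (5.72 to 5.86). With no detection call used, folds against those arrays are given as lower bounds. The difference was -3.19 ± 0.26 at E13.5 (at least 9.12-fold lower, adjusted p = 1.84e-07 by limma). It was -4.14 ± 0.29 at E14.5 (at least 17.6-fold lower, adjusted p = 5.72e-08). At the late age it stood at -3.89 ± 0.26 (14.9-fold lower, adjusted p = 6e-08). Rgs5 was also the only mural gene of the 6 that rose inside the GFP sort. The rise from E13.5 to the late age was 1.5 ± 0.26 (at least 2.82-fold, adjusted p = 0.000654).

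Kcnj8 and Abcc9 encode the pore subunit Kir6.1 and the regulatory subunit SUR2 of the vascular ATP-sensitive potassium channel. They lie next to each other on chromosome 6. Kcnj8 in whole was 8.79, 8.68 and 8.62 at E13.5, 8.85, 9.12 and 8.74 at E14.5, and 10.63, 9.56 and 9.31 at the late age. In GFP cells it kept between 7.99 and 8.45 on all 8 arrays. The sorts did not overlap at any age, but the difference missed the threshold at E13.5 (-0.49 ± 0.23, adjusted p = 0.161) and at E14.5 (-0.75 ± 0.26, adjusted p = 0.0521). When only the compared groups entered the fit, it passed at both ages (adjusted p = 0.00159 and 0.00677). With 1 array left out it passed at neither, with a limma adjusted p of 0.216 to 0.339 at E13.5 and 0.0649 to 0.313 at E14.5. At the late age it was called at -1.59 ± 0.23 (3.01-fold lower, adjusted p = 0.000202).

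Abcc9 in whole was 8.12, 8.04 and 8.08 at E13.5, 8.20, 8.88 and 8.59 at E14.5, and 10.03, 9.37 and 8.87 at the late age. In GFP cells all 8 arrays lay between 7.19 and 7.30. The sorts did not overlap. The difference was called at each age, at -0.86 ± 0.20 (adjusted p = 0.00532), -1.28 ± 0.22 (0.000454) and -2.16 ± 0.20 (2.05e-06, 4.47-fold lower). The subunits of the other ATP-sensitive channel, Kcnj11 and Abcc8, passed no test between the sorts. Their differences ran from 0.03 to 0.08 for Kcnj11 and from -0.15 to -0.07 for Abcc8.

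Vtn encodes vitronectin, an adhesive glycoprotein of plasma and matrix that pericytes of the central nervous system express. Its level in whole was 9.10, 9.28 and 9.31 at E13.5, 9.25, 9.53 and 9.37 at E14.5, and 10.64, 9.96 and 9.69 at the late age. In GFP cells it was 8.32, 8.64 and 8.56 at E13.5, 9.19 and 8.84 at E14.5, and 8.64, 8.40 and 8.93 at the late age. The sorts came within 0.1 of each other at E14.5 and stood well apart at the late age. The difference was -0.72 ± 0.19 at E13.5 (adjusted p = 0.0113), -0.37 ± 0.21 at E14.5 (0.275, not called) and -1.44 ± 0.19 at the late age (7.91e-05, 2.72-fold lower). Without GFP replicate 1 the E13.5 value was -0.63 and no longer passed (adjusted p = 0.0578).

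Higd1b, a small mitochondrial protein of the hypoxia-inducible domain family with pericyte-enriched expression, separated from E14.5 onward. In whole it was 7.50, 7.51 and 7.31 at E13.5, 7.64, 8.04 and 7.91 at E14.5, and 9.36, 9.53 and 9.22 at the late age. The 8 GFP arrays lay between 7.09 and 7.39. At E13.5 the sorts overlapped (-0.19 ± 0.11, adjusted p = 0.275). GFP cells were lower by -0.63 ± 0.12 at E14.5 (adjusted p = 0.00135) and by -2.20 ± 0.11 at the late age (1.95e-09, 4.60-fold lower).

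Pdgfrb, the receptor through which PDGF-B recruits mural cells, ran the other way from the 5 other mural genes at the earlier ages. In GFP cells it was 8.42, 8.49 and 8.40 at E13.5, 8.76 and 9.18 at E14.5, and 8.48, 8.42 and 8.46 at the late age. In whole it was 8.01, 7.88 and 7.99 at E13.5, 7.98, 7.91 and 8.17 at E14.5, and 9.01, 8.52 and 8.48 at the late age. GFP cells thus lay above whole at E13.5 and E14.5 without overlap. At the late age the sorts overlapped narrowly, with GFP replicate 1 and the lowest whole array both at 8.48 and the other GFP arrays just below. The difference was 0.48 ± 0.13 at E13.5 (adjusted p = 0.0126) and 0.95 ± 0.14 at E14.5 (1.93-fold higher, adjusted p = 0.000107). At the late age it was -0.22 ± 0.13 (adjusted p = 0.366). Without whole replicate 2 the E13.5 value was 0.44 and did not pass (adjusted p = 0.0519). Its ligand Pdgfb passed no test between the sorts, with differences of 0.01, 0.11 and -0.11.

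**Figure D2:**
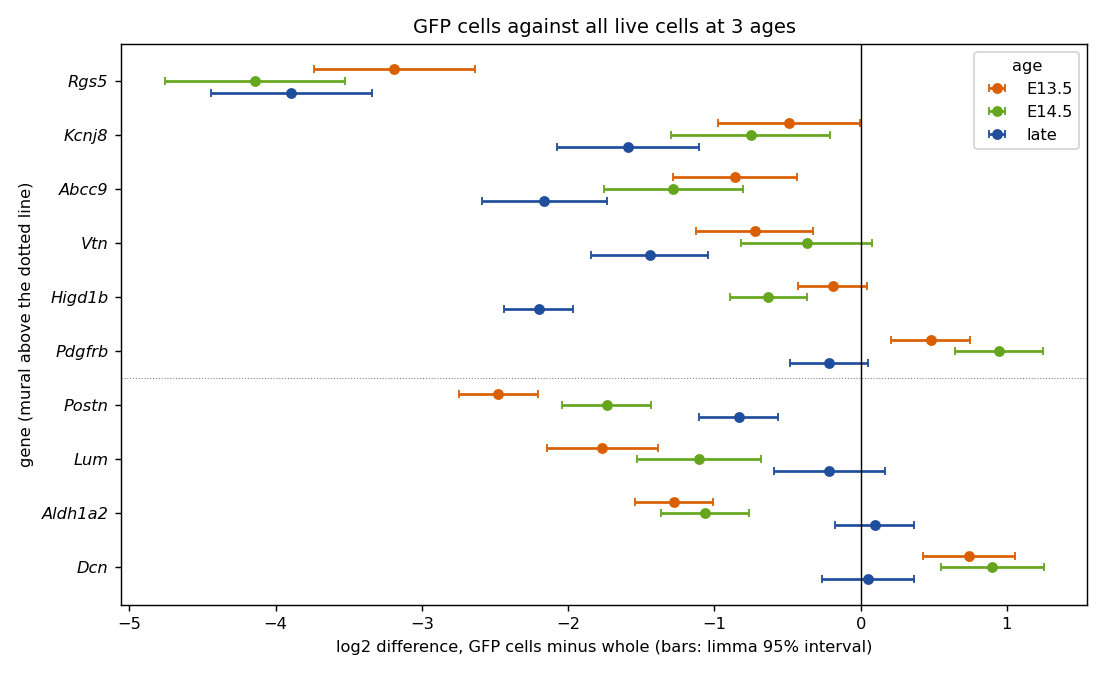
Log2 difference between GFP cells and whole (horizontal axis) for each of the 10 genes (vertical axis) at E13.5 (orange), E14.5 (green) and the late age (blue), with limma's 95% interval as the bar. Rgs5 stays between -4.14 and -3.19, Pdgfrb and Dcn lie right of 0 at the earlier ages, and Postn, Lum and Aldh1a2 move toward 0 with age.

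Among the meningeal genes, Postn had the widest gap. It encodes periostin, a matricellular protein that binds integrins and collagen. In whole it was 8.34, 8.12 and 8.61 at E13.5, 7.88, 7.50 and 7.55 at E14.5, and 6.70, 7.01 and 6.83 at the late age. The 8 GFP arrays lay between 5.75 and 6.15, near the 10th percentile of all genes on these arrays (5.72 to 5.86). The sorts never overlapped. No detection call was used here, so folds against arrays near that percentile are given as lower bounds. GFP cells were lower by -2.48 ± 0.13 at E13.5 (at least 5.57-fold, adjusted p = 1.87e-09), by -1.74 ± 0.14 at E14.5 (at least 3.33-fold, 2.17e-07) and by -0.84 ± 0.13 at the late age (at least 1.78-fold, 0.000357).

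Lum encodes lumican, a small leucine-rich proteoglycan that spaces collagen fibrils. In whole it was 7.31, 7.82 and 7.52 at E13.5, 6.75, 6.61 and 6.71 at E14.5, and 5.73, 5.84 and 6.18 at the late age. GFP arrays lay between 5.44 and 6.28, also near that percentile. GFP cells were lower by -1.77 ± 0.18 at E13.5 (at least 3.40-fold, adjusted p = 2.03e-06) and by -1.11 ± 0.20 at E14.5 (at least 2.15-fold, 0.000615). At the late age the sorts overlapped (-0.21 ± 0.18, adjusted p = 0.559), with both near that percentile.

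Aldh1a2 encodes the retinaldehyde dehydrogenase that makes retinoic acid in the embryo. In the developing cord it is known from the meninges and also from limb-level motor neurons. In whole it was 8.40, 8.46 and 8.10 at E13.5, 7.98, 7.64 and 7.94 at E14.5, and 6.85, 7.24 and 7.02 at the late age. In GFP cells it was 7.06, 7.04 and 7.05 at E13.5, 6.62 and 6.97 at E14.5, and 7.28, 7.08 and 7.03 at the late age. GFP cells were lower by -1.28 ± 0.13 at E13.5 (2.42-fold, adjusted p = 1.66e-06) and by -1.06 ± 0.14 at E14.5 (2.09-fold, 3.29e-05), and the sorts overlapped at the late age (0.10 ± 0.13, adjusted p = 0.741). Motor neuron genes were counted for this reason. Of 8 such genes, 2 were lower in GFP cells at E13.5 (background 8.01%; Isl1 by -1.16 ± 0.11 and Prph by -0.45 ± 0.12), 2 at E14.5 (8.23%) and none at the late age (4.68%), and their summed level in whole was 10.44 to 10.55 at E13.5 and 10.07 to 10.29 at the late age. Their part in the Aldh1a2 result was not tested. The related enzyme Aldh1a3 passed no test between the sorts (-0.14 to -0.04), and Aldh1a1 was lower in GFP cells at E14.5 only (-0.46 ± 0.13, adjusted p = 0.0189).

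Dcn, the proteoglycan decorin, differed from the 3 other meningeal genes. In GFP cells it was 10.39, 10.59 and 10.56 at E13.5, 11.09 and 10.45 at E14.5, and 9.31, 9.0 and 9.02 at the late age. In whole it was 9.63, 9.97 and 9.71 at E13.5, 9.91, 9.85 and 9.84 at E14.5, and 8.88, 8.99 and 9.31 at the late age. GFP cells lay above whole at the earlier ages, by 0.74 ± 0.15 at E13.5 (1.67-fold, adjusted p = 0.00158) and 0.90 ± 0.17 at E14.5 (1.87-fold, 0.000711), and among the whole arrays late (0.05 ± 0.15, adjusted p = 0.897). Without GFP replicate 1 the E14.5 value fell to 0.58 (adjusted p = 0.0342). Dcn and Lum are neighbours on chromosome 10, yet their values had a correlation of -0.02 over the 17 arrays. The next gene along, Kera, passed no test between the sorts (-0.11 to 0.03).

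With age, the mural and meningeal genes moved in opposite directions in whole. From E13.5 to the late age all 10 genes were called, against 20.2% of all genes. All 6 mural genes rose (background 10.2%) and all 4 meningeal genes fell (background 9.99%). Rgs5 rose by 2.20 ± 0.26 (4.60-fold, adjusted p = 8.31e-06) and Higd1b by 1.93 ± 0.11 (3.81-fold, 2.88e-09). Abcc9 rose by 1.35 ± 0.20, Kcnj8 by 1.14 ± 0.23, Vtn by 0.87 ± 0.19 and Pdgfrb by 0.71 ± 0.13. Lum fell by 1.63 ± 0.18 (at least 3.10-fold, since its late values lie near the 10th percentile of all genes, adjusted p = 3.69e-06), Postn by 1.51 ± 0.13 (2.85-fold), Aldh1a2 by 1.29 ± 0.13 (2.44-fold) and Dcn by 0.71 ± 0.15 (1.64-fold).

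Between E13.5 and E14.5 only 2 of the 10 genes were called in whole (background 1.13%; 0.403% lower), and both were meningeal: Postn at -0.71 ± 0.13 (adjusted p = 0.0111) and Lum at -0.86 ± 0.18 (0.0247). No mural gene was called, with values from 0.06 for Pdgfrb to 0.82 ± 0.26 for Rgs5 (adjusted p = 0.198). Whether the timing of the groups differs was not tested. The early calls of Postn and Lum depended on single arrays. Of 6 arrays left out in turn, 4 ended the call of Postn (whole E13.5 replicates 1 and 3, whole E14.5 replicates 2 and 3; adjusted p up to 0.0685) and 5 that of Lum (each but whole E13.5 replicate 1; up to 0.128). From E14.5 to the late age all 10 were called again (background 18.3%), with rises of 0.65 to 1.51 for the 6 mural genes (background 9.42%) and differences of -0.82 to -0.77 for the 4 meningeal genes, all lower (8.9%). The whole arrays of these ages overlapped narrowly for Abcc9, with late replicate 3 (E18.5) at 8.8749 and E14.5 replicate 2 at 8.8752.

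One late whole array weighed on the mural rise. Replicate 1, an E17.5 array, held the highest late value of Rgs5, Kcnj8, Abcc9, Vtn and Pdgfrb, though not of Higd1b. Without it, Kcnj8 rose by 0.74 rather than 1.14 from E13.5 (adjusted p = 0.000954). From E14.5 the rise of Kcnj8 was 0.54 without it rather than 0.94, that of Abcc9 0.57 rather than 0.87, and that of Vtn 0.44 rather than 0.71, where Vtn lost its call (adjusted p = 0.0615). Vtn also lost that call without whole E14.5 replicate 1 (0.65, adjusted p = 0.056). The same array had the highest summed level of 16 endothelial genes (12.57, against 12.37 to 12.43 on the other late whole arrays). Its value of the neutrophil gene S100a9, a gene of the same coexpression module chosen after its values were seen, was 9.18, against 8.56 and 8.40. The summed level of 14 microglia and macrophage genes was instead highest on replicate 3 (14.38).

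Within GFP cells 0 to 3 of the 10 genes were called per comparison of ages. None was called between E13.5 and E14.5 (background 1.51%; limma at an adjusted p under 0.05), where Vtn stood at 0.51 ± 0.21 (adjusted p = 0.343) and Pdgfrb at 0.53 ± 0.14 (0.0838), both without overlap of the arrays. From E13.5 to the late age 2 of 10 were called, a share near the 16.3% of all genes: Rgs5 rose, as given above (background 7.32%), and Dcn fell by 1.40 ± 0.15 (2.65-fold, background 8.96%). From E14.5 to the late age the calls were 3 of 10 (background 6.23%), namely Rgs5 at 1.63 ± 0.29 (higher, 2.95%) and, lower (3.28%), Dcn at -1.66 ± 0.17 and Pdgfrb at -0.51 ± 0.14 (adjusted p = 0.0414). The Pdgfrb call ended when GFP E14.5 replicate 2 or any of the 3 late GFP arrays was left out (-0.30 and adjusted p = 0.437 without the former). The other 8 genes differed between E13.5 and late GFP cells by -0.08 to 0.15 on the log2 scale, with standard errors of 0.11 to 0.23. For Postn and Lum, near the 10th percentile on the GFP arrays, a change could go unseen.

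The change of the GFP to whole difference with age was tested as an interaction. Between E13.5 and E14.5 it was called for none of the 10 genes, and for 0.0503% of all genes. Between E13.5 and the late age it was called for 6 of 10 (background 4.60%). The difference moved downward (background 3%) for Higd1b (-2.01 ± 0.16, adjusted p = 2.14e-06), Abcc9 (-1.30 ± 0.28, 0.0124) and Pdgfrb (-0.70 ± 0.18, 0.0348). It moved upward, toward 0 (background 1.6%), for Postn (1.64 ± 0.18, 5.09e-05), Lum (1.55 ± 0.25, 0.00158) and Aldh1a2 (1.37 ± 0.18, 0.000265). Postn and Lum lay near the 10th percentile of all genes on the GFP arrays, and Lum also on the late whole arrays. A fall of either gene in GFP cells could therefore go unseen in these tests. Rgs5, which rose in both sorts, was not called (-0.70 ± 0.37, adjusted p = 0.321). Its gap at E13.5 is a lower bound, as given above. Of 12 arrays left out in turn, 10 ended the Pdgfrb call (all but whole late replicates 2 and 3), with an adjusted p of up to 0.0807. Between E14.5 and the late age, 6 of 10 were called (background 5.14%; 1.95% upward and 3.19% downward): Higd1b at -1.57 ± 0.17, Pdgfrb at -1.16 ± 0.19, Aldh1a2 at 1.16 ± 0.19, Postn at 0.90 ± 0.19, Vtn at -1.07 ± 0.28 and Dcn at -0.85 ± 0.22. These tests share the late arrays with the interaction from E13.5. The calls of Vtn (6 of 11 arrays), Dcn (7 of 11) and Postn (GFP E14.5 replicate 1 only, adjusted p = 0.0548) ended when single arrays were left out, and Dcn stood at -0.53 (adjusted p = 0.236) without GFP E14.5 replicate 1.

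**Figure D3:**
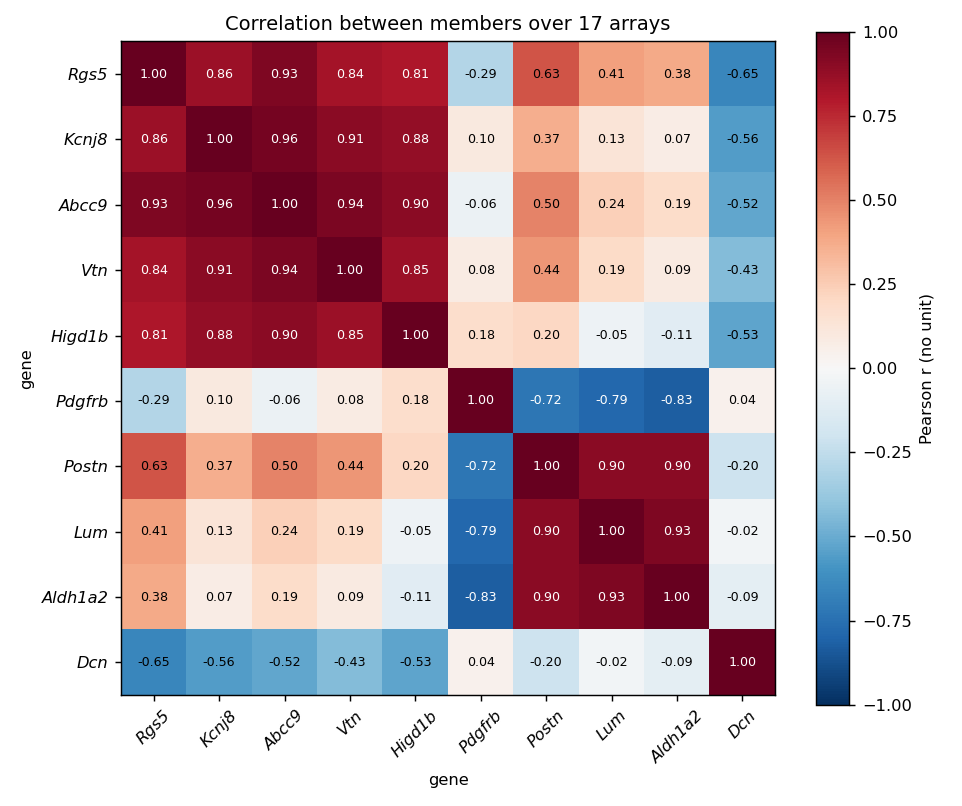
Pearson correlation of log2 values over the same 17 arrays for each pair of the 10 genes (both axes), on a colour scale from -1 (blue) to 1 (red). The mural genes other than Pdgfrb form a block between 0.81 and 0.96, Postn, Lum and Aldh1a2 a block between 0.90 and 0.93, and Pdgfrb and Dcn stand outside both.

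Across the 17 arrays the 10 genes fell into 2 blocks and 2 single genes. These correlations describe arrays that share their sort, age and normalisation, so no p is given. Kcnj8 and Abcc9 had the highest value of any pair (0.96), and Abcc9 was the gene most like Kcnj8 among all genes tested. Abcc9 was also the gene most like Vtn (0.94). Rgs5 and Abcc9 stood at 0.93, and Higd1b and Abcc9 at 0.90. Pdgfrb had values of only -0.29 to 0.18 with the other mural genes and of -0.83 with Aldh1a2. Among the meningeal genes, Lum and Aldh1a2 stood at 0.93 and Postn at 0.90 with each of them, while Dcn had -0.20 with Postn and -0.65 with Rgs5.

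The genes most like each of the 10 over these arrays were of several cell types. Those most like Rgs5 were Myadm (0.97), the glutamate receptor gene Gria3 (0.97) and the macrophage protease Ctss (0.96). Those most like Higd1b were the macrophage gene Ly86 (0.98), the endothelial receptor Adgrl4 (0.98) and Pdgfra (0.97), the receptor of oligodendrocyte precursors. Kcnj8 was followed by Abcc9, Car4 (0.95) and the endothelial transcription factor Ets1 (0.95). Abcc9 was closest to Rasgrp3 (0.97), Ctss (0.96) and Akap5 (0.96), and Vtn to Abcc9, Rasgrp3 (0.93) and Car4 (0.92). Those most like Postn were Camsap2, Rbms3 and Unc79 (0.97 each). For Lum they were Lhx1 (0.95), a transcription factor of spinal interneurons, Klhl14 (0.93) and Aldh1a2. Aldh1a2 was closest to Scrt1 (0.95), Skor1 (0.94) and Lhx1 (0.94), which are neuronal transcription regulators. Pdgfrb was closest to Man1c1 (0.90), Trim34a and Adam9 (0.88 each), and Dcn to Cnot11 (0.93), Zbtb44 (0.91) and Tle1 (0.89).

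The authors' deposited module table places 4 of the 10 genes in its magenta module of 33 genes. Its kME score, the correlation of a gene with the profile of the module, was 0.98 for Abcc9, 0.97 for Kcnj8, 0.96 for Rgs5 and 0.96 for Vtn in the authors' deposited table. Higd1b (0.91) was assigned to magenta by the looser false discovery rule of that table. The module also held 3 of the 16 endothelial genes (Tek, Emcn and Cldn5), 2 of the 22 other mural genes (Anpep and Art3) and none of the 14 microglia and macrophage genes. Among its other genes are the neutrophil genes S100a8, S100a9, Ngp and Pglyrp1, named after their values were seen. In the authors' deposited table Aldh1a2 joined the blue module by the looser rule (0.83) and Dcn joined red (0.79). Postn was a seed of blue (0.86) but, like Lum and Pdgfrb, was assigned to no module by the stricter or the looser rule. These scores were computed over the same 17 arrays as the correlations above and are no separate evidence.

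The authors' deposited comparison tables list 7, 3 and 5 of the 10 genes in order of age. At E13.5 and the late age their folds equal those recomputed here, for example 0.110 for Rgs5, 1.67 for Dcn and 0.180 for Postn at E13.5. At E14.5 they differ. The authors' deposited table gives Rgs5 a fold of 0.145 with an adjusted p of 0.139, against 0.0567 here, and lists Abcc9 at 0.531 and Aldh1a2 at 0.620, against 0.411 and 0.479 here. That table's headings name 3 GFP arrays at E14.5, while 2 arrays carry that label and entered the fit here. When the array marked as mislabeled is averaged with those 2, the folds of Rgs5, Abcc9 and Aldh1a2 come within 0.001 of the authors' deposited table.

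Further genes of both cell types and of related pathways were counted, and each count is to be read against the share of all genes called. That share was 11.1%, 10.3% and 4.61% higher and 8.01%, 8.23% and 4.68% lower in GFP cells in order of age. Of 22 further mural genes, 3 were lower and 2 higher in GFP cells at E13.5, 4 lower and 2 higher at E14.5, and 9 lower and none higher at the late age. Rgs4, the neighbour of Rgs5 on chromosome 1, was lower by -0.97 ± 0.17, -1.76 ± 0.19 and -1.62 ± 0.17, and its correlation with Rgs5 over the arrays was 0.90. At E13.5 the receptor Notch3 and the myosin light chain Myl9 were higher, by 0.62 ± 0.09 and 0.86 ± 0.22. Late, the aminopeptidase Anpep (-1.01 ± 0.18), Atp13a5 (-0.88 ± 0.17) and Art3 (-0.87 ± 0.15) were lower. In whole, 10 of the 22 rose from E13.5 to the late age (background 10.2%) and none fell (background 9.99%). Within GFP cells 6 of the 22 rose over that time (background 7.32%) and none fell (8.96%). The interaction between E13.5 and the late age was called for 0 of the 22 (background 4.60%). Between E14.5 and the late age it was called for 1, downward (background 3.19%). The aminopeptidase Enpep rose in both sorts, by 1.89 ± 0.22 in whole and 2.08 ± 0.22 in GFP cells. The medians of this list, -0.14, -0.16 and -0.28 at the 3 ages, lay nearer those of all genes than did the medians of the 6 named genes.

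Of 19 genes that signal to mural cells or receive such signals, 5 were higher and 2 lower in GFP cells at E13.5, 4 higher and 1 lower at E14.5, and 3 higher and 4 lower at the late age. The sphingosine phosphate receptor S1pr1 was higher by 1.73 ± 0.14, 1.83 ± 0.16 and 0.53 ± 0.14. Angpt1, the ligand of the endothelial receptor Tek, stood at 1.30 ± 0.16 and 1.24 ± 0.18 at the earlier ages, and it fell within GFP cells by 1.21 ± 0.16 from E13.5 to the late age. The Notch ligand Jag1 was higher by 0.87 ± 0.16 and 0.90 ± 0.18 at the earlier ages. Pdgfra, the sister receptor of Pdgfrb, was lower in GFP cells at each age, at -0.73 ± 0.14, -1.46 ± 0.16 and -3.14 ± 0.14, while Pdgfrb was higher at the earlier ages.

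Of 20 further meningeal fibroblast genes, 9 were lower and 2 higher in GFP cells at E13.5, 7 lower and 3 higher at E14.5, and 2 lower and 2 higher at the late age. The forkhead factors Foxc2 (-1.49 ± 0.15) and Foxd1 (-1.06 ± 0.15), the retinoic acid binding protein Crabp2 (-1.04 ± 0.19) and the transporter Slc6a13 (-0.91 ± 0.15) were among those lower at E13.5. The collagen Col12a1 (1.09 ± 0.11) and S100a6 (1.35 ± 0.30) were higher in GFP cells at E14.5, as Dcn was. Of the 20, the interaction between E13.5 and the late age was upward for 3 (background 1.6%), Foxc2 (1.15 ± 0.22) and Slc6a13 (0.76 ± 0.21) among them, downward for Igf2 (-0.78 ± 0.20, adjusted p = 0.0297; background 3%) and not called for 16. In whole, 5 of the 20 fell (background 9.99%) and 2 rose (background 10.2%) from E13.5 to the late age, with Crabp2 at -2.49 ± 0.19 and Alcam at 1.56 ± 0.12. The count of rises was near the share of all genes.

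Of 10 small leucine-rich proteoglycan genes, Dcn and Lum included, 2 were higher and 4 lower in GFP cells at E13.5, 2 higher and 2 lower at E14.5, and 1 higher and 1 lower at the late age. Prelp was higher with Dcn at the earlier ages (1.22 ± 0.19 and 1.73 ± 0.22), and Bgn was lower with Lum (-0.79 ± 0.13 and -0.65 ± 0.14). Aspn, which the authors placed in magenta, was lower by -2.12 ± 0.21 at the late age and rose in whole by 2.16 ± 0.21. Ogn passed no test between the sorts (-0.28 to -0.12), and neither did the matrix protein Tgfbi, the relative of periostin (-0.22 to -0.01). Of 18 retinoic acid pathway genes, Aldh1a2 included, 4 were higher and 2 lower at E13.5, 4 higher and 4 lower at E14.5, and 2 higher and 1 lower at the late age. Dhrs3, which reduces retinaldehyde, was higher in GFP cells by 0.75 ± 0.10 and 1.11 ± 0.11. Crabp1 fell within GFP cells by 2.47 ± 0.19 from E13.5 to the late age, and the receptor Rarb fell in both sorts (-1.22 ± 0.23 in whole, -1.07 ± 0.23 in GFP cells).

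**Figure D4:**
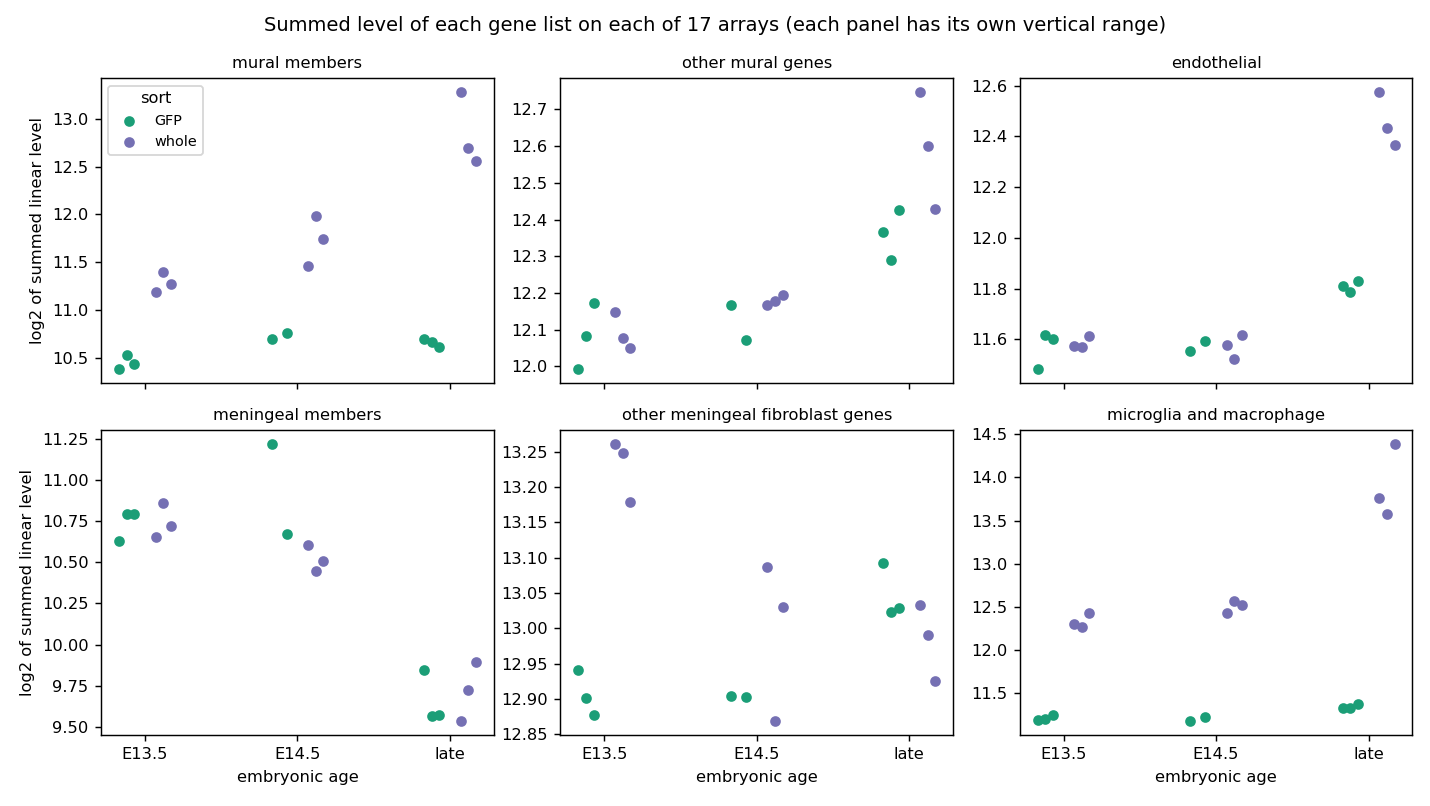
Log2 of the summed linear level (vertical axis, a separate range in each panel) of 6 gene lists on each of the 17 arrays, by age (horizontal axis), green for GFP cells and purple for whole. Dcn is the largest part of the meningeal sum, which therefore does not show the lower Postn, Lum and Aldh1a2 of early GFP cells. In whole, the mural, endothelial and microglia and macrophage lists are all highest at the late age, and replicate 1 is the highest late whole array for the first 2.

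Markers of other cells were counted beside these genes, and their part in the results was not tested. Endothelial genes were lower in GFP cells for 2 of 16 (1 higher) at E13.5 and at E14.5, and for 12 of 16 at the late age, where Slco1c1 stood at -2.21 ± 0.12 and Kdr at -1.52 ± 0.10. Their summed level overlapped between the sorts at the earlier ages (GFP cells 11.48 to 11.62, whole 11.52 to 11.62) and separated late (11.79 to 11.83 against 12.37 to 12.57). By then 12 of 16 had risen in whole from E13.5 (background 10.2%). The summed level of the 6 mural genes was already apart at E13.5, with GFP cells at 10.38 to 10.52 and whole at 11.19 to 11.40. Of these 6, Rgs5 had the widest gap at that age, while the sorts overlapped for Higd1b and Pdgfrb was higher in GFP cells. The summed level of the 22 further mural genes overlapped at E13.5 (GFP cells 11.99 to 12.17, whole 12.05 to 12.15). Microglia and macrophage genes were lower in GFP cells for 11, 13 and 13 of 14 at the 3 ages. In whole 12 rose from E13.5 to the late age (background 10.2%), with a summed level of 12.27 to 12.43 at E13.5 and 13.57 to 14.38 late. Erythroid genes were lower for 7, 8 and 3 of 10, with Hbb-b1 at -5.52 ± 0.25, -6.41 ± 0.28 and -5.29 ± 0.25. In whole all 8 oligodendrocyte precursor genes and 11 of 12 astrocyte and radial glia genes rose from E13.5 to the late age (background 10.2%). Of these 12, 8, 9 and 10 were higher in GFP cells at the 3 ages.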

How the data were processed

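The analysis started from the authors' deposited log2 expression values for 35556 probe sets on 18 arrays. Per the submitters' processing notes, oligo, RMA and limma were used and the build mm9 is listed, with no versions given in the sources used here. The authors' deposited tables also gave a fold and a p-value per listed gene, a kME score per gene and module, and a count of genes per module. The deposited values name probe sets by number only. Names were paired by value: the 1875 and 552 genes of the E13.5 and E14.5 tables through their array values, and the module table's 23890 genes through kME recomputed from linear values of 17 arrays, with a tolerance of 1e-08 (135 had more than 1 matching probe set). Symbols were updated with RefSeq (GRCm38.p6). Where a gene had several probe sets, the one with the highest mean was kept. The E13.5 table and the E14.5 table each hold 3 value columns that were left out, headed for GFP cells at E14.5, where 2 arrays carry that label.

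Expression on the 17 assigned arrays was modelled in 1 limma fit (version 3.58.1, R 4.3.3; 6 group means, 12 contrasts, eBayes with 11 residual and 5.43 prior degrees of freedom). P-values were adjusted by Benjamini-Hochberg over 23834 genes with a threshold of 0.05. The fit was tested on simulated data. Replicate numbers were not used to pair the samples, and the labels do not say whether same-numbered arrays share cords. The members and gene lists were chosen with earlier results of these data known, and no list was tested as a set. Per list and comparison, up to 4 called genes with the largest differences were named, besides partners of the members (Pdgfb, Kcnj11, Abcc8, Kera, Ogn, Tgfbi, Aldh1a1 and Aldh1a3). For 1 gene this rule names, the result is not reported here. Likeness was ranked by Pearson correlation over the 17 arrays. Alternatives were other normalisations, a filter on dim genes, other fits and features, E17.5 arrays alone, a replicate block and leaving out single arrays. Precision is limited by the number of arrays, which have no read depth.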

Additional observations from a re-analysis of the deposited data

Results flagged for a closer look

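For 6 genes the difference between GFP cells and whole changed between E14.5 and the late age in a limma test of the interaction. It changed by -1.57 for Higd1b, by -1.07 for Vtn, by -1.16 for Pdgfrb, by 0.90 for Postn, by -0.85 for Dcn and by 1.16 for Aldh1a2. From E13.5 to the late age it changed for Higd1b (-2.01), Abcc9 (-1.30), Pdgfrb (-0.70), Postn (1.64), Lum (1.55) and Aldh1a2 (1.37). Both tests use the same late arrays. Over that time Postn, Lum and Aldh1a2 fell in whole, and in GFP cells they differed from E13.5 by 0.13, -0.08 and 0.09. For Pdgfrb, whole rose by 0.71 while GFP cells stood at 0.02.

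The array that its title marks as mislabeled, titled as GFP cells at E14.5, belongs to no group. It held Postn at 8.53 and Lum at 7.62, above every E14.5 array (up to 7.88 and 6.75 in whole, and up to 5.93 and 5.63 in GFP cells). Both values lay within the range of whole at E13.5 (8.12 to 8.61 for Postn, 7.31 to 7.82 for Lum). Its Rgs5 value was 10.35, against 9.98 to 10.80 in whole and 6.11 to 6.43 in GFP cells at E14.5. Its Pdgfrb value, 7.80, was below all 17 other arrays (7.88 to 9.18).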

How the results depend on the processing

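Over 12 comparisons and all alternatives, 1658 recomputed member results kept their side of the threshold, 61 lost the call and 17 gained it. No called value changed sign. Some values that were not called did, such as Dcn between the sorts at the late age (-0.05 to 0.22). The replicate block left 3 of the 6 calls in the interaction from E14.5 to the late age and moved no other member count by over 1.5 times. Numbers were not taken as pairs, because the deviations of same-numbered arrays correlated at only -0.08 to 0.12 and 2 of 8 GFP arrays were most like the whole array of their own number. Such deviations, from means of few arrays, cannot show whether the 2 sorts shared cords. In whole from E13.5 to E14.5 the 2 calls became 0 without dim genes, a filter that removes Postn and Lum, and 1 with all probe sets tested. With 1 array left out, that count ranged from 0 to 2, and the count of the interaction from E14.5 to the late age from 3 to 7. For the sort comparisons it stayed at 7 to 8, 8 and 6. The Kcnj8 difference at E14.5 passed without dim genes (adjusted p = 0.0404) and with the block (0.0123). Counts over all genes moved by more than 1.5 times in several settings: with the compared groups alone, late sort calls went from 2214 to 1020 and GFP calls from E14.5 to late from 1486 to 545. With all probe sets, calls from E13.5 to E14.5 went from 269 to 135 in whole and from 359 to 238 in GFP cells. The interaction from E14.5 to late had 1226 calls, 695 with the compared groups alone and 764 with the block, and that from E13.5 to E14.5 had 12, but 8 after quantile normalisation, 41 with the compared groups alone, 3 with all probe sets and 2 with the block. Leaving out single arrays also cut counts over all genes, to as few as 93 in whole and 102 in GFP cells from E13.5 to E14.5, 660 in GFP cells from E14.5 to late, and 4 and 644 for the interactions ending at E14.5 and starting there. After shifting arrays to a common median, the higher share of GFP calls went from 45% to 31.8% for E13.5 to late and from 47.4% to 33.9% for E14.5 to late.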
